A study of Mus musculus with 12 samples.

Results

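Described here are 7 genes whose products belong to megakaryocytes and platelets: the chemokine genes Pf4 and Ppbp, the adhesive protein gene Vwf, the glycoprotein genes Gp1bb and Gp9, and the receptor genes Treml1 and F2rl2. They were taken by name from a list. All 7 were found among 37086 genes counted in mouse RNA-seq libraries, and all 7 were among the 15662 genes with enough counts to be tested.

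Megakaryocytes are large cells of the bone marrow that shed platelets. They pack the chemokines PF4 and PPBP and von Willebrand factor into alpha granules, and they carry GP1BB and GP9 on the surface with GP1BA and GP5, as the receptor that holds platelets to von Willebrand factor at a damaged vessel wall. TREML1 sits in the granule membrane and reaches the surface when platelets are activated, and F2RL2 is a thrombin receptor of mouse platelets. Haematopoietic stem cells also transcribe several of these genes, and stem cells that lean towards platelet production are known for Vwf.

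The 12 libraries formed 4 groups of 3. Cells sorted as lineage-negative, Sca1-positive, Kit-positive, CD48-negative and CD150-positive are labelled haematopoietic stem cells (HSC). Cells sorted as lineage-negative and Kit-positive, without CD16/32, CD41, CD105, CD150 and Sca1, are labelled preGM, a committed granulocyte and macrophage precursor. Each cell type came from C57bl/6 wild-type mice (WT) or from the strain labelled Col1a1-MLL/ENL (MLL-ENL), MLL-ENL being a leukaemia fusion of a histone methyltransferase with a reader of acetylated histones. The sort was followed by 48 h of culture, and every group, the WT ones too, received 1 µg/ml doxycycline, 10% serum, 10 to 50 ng/ml SCF and 5 ng/ml each of IL3 and G-CSF. Since the MLL-ENL libraries all had doxycycline, effects of the fusion and of the strain cannot be told apart. Nothing in the labels ties replicates to separate animals or cultures, so p-values reflect the spread of these libraries, which can be technical.

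In megacounts, the HSC libraries held 14.5 to 18.1 (WT) or 19.0 to 23.4 (MLL-ENL) and the deeper preGM libraries 34.7 to 44.5 (WT) or 38.4 to 50.3 (MLL-ENL). A pair of libraries stood apart from the others of their group, WT preGM replicate 2 and MLL-ENL preGM replicate 1. The chi-square per degree of freedom against the other libraries of the group was 442 to 555 for them, and 17.0 to 32.4 for every other pair of replicates. RNA measures differed with genotype in HSC: introns gave 3.72 to 4.10 counts per 100 gene counts in WT HSC and 4.79 to 5.96 in MLL-ENL HSC, and mitochondrial genes took 5.40 to 5.92% and 6.33 to 6.71% of the counts. In preGM those ranges overlapped between genotypes. The sort markers were looked at after culture. In WT preGM, Ly6a (Sca1), Slamf1 (CD150), Eng (CD105) and Itga2b (CD41) were all lower than in WT HSC, while the granule enzyme genes Mpo and Elane were higher. Other sort genes went against the preGM sort. Fcgr3 (CD16) and Fcgr2b (CD32), whose proteins were absent there, were higher in WT preGM than in WT HSC. The mean of Fcgr3 was 208 CPM in WT preGM and 1.21 CPM in WT HSC. Kit, whose protein was present at both sorts, was lower in WT preGM (mean 26.9 CPM) than in WT HSC (95.0 CPM). Cd48, whose protein was absent at the sort, had 91.4 to 134 CPM in WT HSC and 4.18 to 6.44 CPM in MLL-ENL HSC.

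In position (GRCm38, counted from 1), Ppbp (chromosome 5, 90768518 to 90770063) and Pf4 (chromosome 5, 90772435 to 90773383) lie in the same orientation, each with 3 exons. Vwf (chromosome 6, 125546774 to 125686679) has 52 exons in the transcript followed here. Gp9 is on chromosome 6 (87778072 to 87779768), Treml1 on chromosome 17 (48359916 to 48367176), Gp1bb on the reverse strand of chromosome 16 (18620317 to 18622403) and F2rl2 on chromosome 13 (95696853 to 95702739), where it lies inside the span of Iqgap2.

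The promoters of 4 of the genes are shown because the chemokine pair and F2rl2 were the genes that fell in MLL-ENL HSC and Gp9 was a gene whose change was not called there. They are RefSeq sequences on GRCm38.p6 from before the RefSeq transcript start, 5′ to 3′ on the gene's strand, which is the forward strand for all 4. For F2rl2 the last 67 bases before that start lie inside exon 1 of the transcript in the files and are not printed, and for Gp9 the transcript in the files starts 66 bases after the RefSeq start. They cover chr5:90772185-90772434 for Pf4, chr5:90768268-90768517 for Ppbp, chr13:95696670-95696852 for F2rl2 and chr6:87777820-87778069 for Gp9. Capitals mark matches, on either strand, to 6-base motifs of factor families known in megakaryocytes.
Pf4: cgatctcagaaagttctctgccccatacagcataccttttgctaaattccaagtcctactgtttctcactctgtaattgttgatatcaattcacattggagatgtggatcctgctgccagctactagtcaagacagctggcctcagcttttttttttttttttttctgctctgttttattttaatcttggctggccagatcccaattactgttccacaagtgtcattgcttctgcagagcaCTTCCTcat
Ppbp: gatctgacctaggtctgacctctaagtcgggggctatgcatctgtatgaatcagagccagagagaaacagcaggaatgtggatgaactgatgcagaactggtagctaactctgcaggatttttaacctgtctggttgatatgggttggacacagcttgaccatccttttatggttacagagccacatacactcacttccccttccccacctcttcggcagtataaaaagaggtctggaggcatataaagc
F2rl2: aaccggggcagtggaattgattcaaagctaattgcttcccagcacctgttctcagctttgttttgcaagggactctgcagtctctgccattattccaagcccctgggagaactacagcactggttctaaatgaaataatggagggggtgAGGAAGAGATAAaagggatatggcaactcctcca
Gp9: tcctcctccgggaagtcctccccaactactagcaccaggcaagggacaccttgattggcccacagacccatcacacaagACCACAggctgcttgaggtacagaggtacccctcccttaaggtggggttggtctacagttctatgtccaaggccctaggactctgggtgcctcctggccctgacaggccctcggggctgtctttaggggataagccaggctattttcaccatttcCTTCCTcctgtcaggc
For GATA factors the motif AGATAA was searched together with its variants AGATAG and also TGATAA and likewise TGATAG in full. For ETS factors the search used AGGAAG as well as CGGAAG, and for RUNX factors it used TGTGGT as well as TGCGGT. Of 32851 RefSeq promoters of 250 bases, 26.5% held a GATA match, 39.2% an ETS match and 18.6% a RUNX match. Among the 6 genes of the set found in that table, Pf4 had 1 ETS match, Gp9 1 ETS and 1 RUNX match, Gp1bb 1 GATA and 1 ETS match, and F2rl2 1 GATA and 1 ETS match that join end to end. Ppbp and Treml1 had none of these letters in the window. A match is a description of the sequence only, and Vwf was not among the 6.

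The first question was how these genes differ between WT and MLL-ENL stem cells. Levels are CPM, counts per megacount after TMM scaling, and changes are log2 fold changes with their standard error (SE). Values per kilobase and megacount, and the numbers of exons or introns higher or lower in a group, are scaled by total gene counts without TMM. In MLL-ENL HSC the chemokine genes Pf4 and Ppbp and the receptor gene F2rl2 fell 10.2-fold, 13.5-fold and 11.9-fold, and Vwf rose 2.02-fold. Of the 7 genes, 1 was called higher and 3 lower by the edgeR quasi-likelihood test (adjusted p under 0.05), where 3.19% of all tested genes were called higher and 0.932% lower. The median log2 change of the 7 was -1.63, beside 0.02 over all tested genes. For 6 of the 7 genes the WT and MLL-ENL HSC libraries did not overlap, which held for 34.8% of all tested genes. In bulk RNA, fewer cells of a type and less RNA per cell cannot be told apart.

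**Figure D1:**
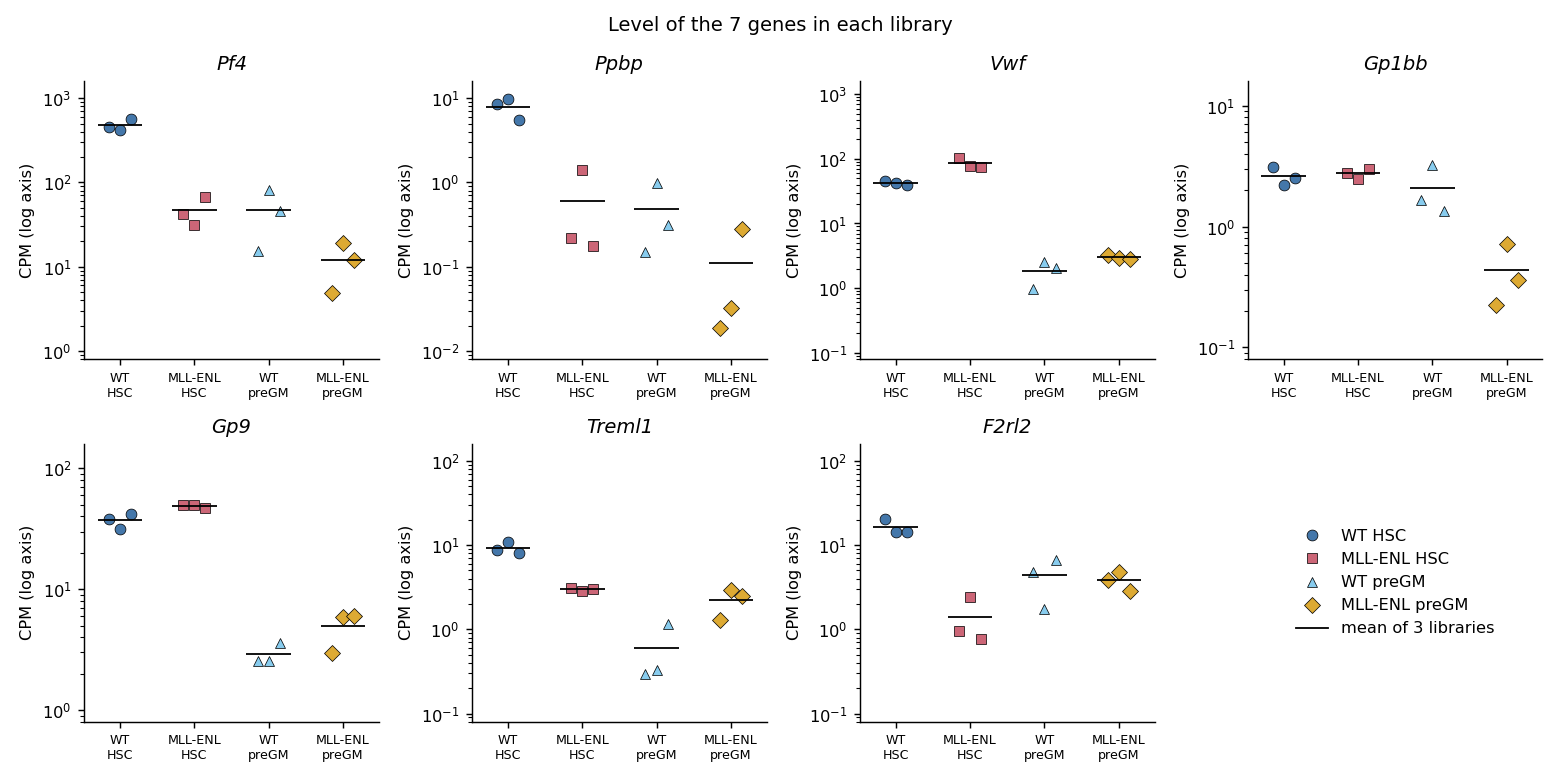
CPM of each of the 7 genes (vertical log axis, scaled separately per gene) in the 3 libraries of each group (points), with the group mean (line). In HSC, Pf4, Ppbp and F2rl2 lie lower and Vwf lies higher in all MLL-ENL libraries than in all WT libraries.

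Pf4 encodes platelet factor 4, a heparin-binding chemokine of alpha granules, and was the most abundant of the set per base of transcript in every group. It had 455, 422 and 565 CPM in the WT HSC libraries and 42.2, 30.8 and 67.9 CPM in the MLL-ENL HSC libraries. The groups did not overlap, and the highest MLL-ENL library lay far under the lowest WT library. The log2 change was -3.35 ± 0.56 (SE; edgeR adjusted p = 0.00262), and it was called under all 23 alternatives, with values from -3.71 to -3.12. All 3 exons of Pf4 were lower in every MLL-ENL HSC library than in every WT HSC library, and so were both introns. Pf4 made up 78.5 to 83.4% of the summed CPM of the 7 genes in WT HSC and 18.3 to 34.7% in MLL-ENL HSC.

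Ppbp encodes pro-platelet basic protein, the precursor of a neutrophil-attracting chemokine. It had 8.50, 9.92 and 5.48 CPM in WT HSC and 0.222, 1.39 and 0.177 CPM in MLL-ENL HSC. The groups did not overlap, although MLL-ENL replicate 2 had 35 counts where the other MLL-ENL libraries had 7 and 5. The log2 change was -3.76 ± 0.84 (edgeR adjusted p = 0.0198). Leaving out WT HSC replicate 2 (0.0558), MLL-ENL HSC replicate 1 (0.0903) or MLL-ENL HSC replicate 3 (0.0878) ended the call, over a range of adjusted p from 0.000253 to 0.0903.

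F2rl2 encodes protease-activated receptor 3, which on mouse platelets helps thrombin act on the receptor encoded by F2rl3. Its level was 20.4, 14.1 and 14.5 CPM in WT HSC against 0.950, 2.43 and 0.778 CPM in MLL-ENL HSC. Every WT library was several times above every MLL-ENL library. The log2 change of -3.57 ± 0.51 (edgeR adjusted p = 0.00101) was called under all 23 alternatives.

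The counts of F2rl2 come from a place where another gene is transcribed, and they do not keep strand. Its intron had 1, 0 and 0 counts in the WT HSC libraries and 29, 12 and 18 in the MLL-ENL HSC libraries. Per kilobase and megacount that was 0.268 ± 0.090 in MLL-ENL HSC (SD, n = 3), beside 0.738 ± 0.477 for its exons there. In WT HSC the exons stood at 7.64 ± 1.69 and the intron at 0.006 ± 0.011. The exons of F2rl2 thus fell while its intron moved the other way, and the share of the remaining exon counts that belongs to Iqgap2 was not tested. Iqgap2, which spans the region on the opposite strand, changed by -0.70 ± 0.23 in HSC and was not called (edgeR adjusted p = 0.112).

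Vwf encodes von Willebrand factor, the large multimer that platelets bind under flow. It had 45.2, 42.0 and 40.0 CPM in WT HSC and 103, 78.8 and 74.3 CPM in MLL-ENL HSC. All MLL-ENL libraries lay above all WT libraries. The log2 change of 1.01 ± 0.27 was just inside the threshold (edgeR adjusted p = 0.0469). It kept its direction under all 23 alternatives, between 0.86 and 1.20, but the call was lost under 11 of them, among them each HSC library left out in turn, the longest transcript alone (0.140) and a block on the replicate number (0.0811), over a range of adjusted p from 0.000519 to 0.191. Without both preGM libraries that stood apart the call was kept (1.01 ± 0.18, edgeR adjusted p = 0.0016).

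Along the Vwf transcript, 48 of 52 exons had a higher mean in MLL-ENL HSC than in WT HSC, and 35 were higher in every MLL-ENL library than in every WT library. Counts were not even along the transcript. Exons 32 to 52 had 13.8, 13.9 and 11.7 counts per kilobase and megacount in the WT HSC libraries and 32.2, 25.4 and 24.5 in the MLL-ENL HSC libraries. Exons 11 to 31 had at most 0.366 in a WT HSC library and 0.649 to 1.14 in MLL-ENL HSC. Exons 1 to 10, before that nearly empty stretch, were covered again: they had 2.56, 1.84 and 2.54 in WT HSC and 11.0, 5.95 and 6.01 in MLL-ENL HSC. The groups did not overlap in any of these stretches, and the ratio of the MLL-ENL to the WT mean was 3.30 for exons 1 to 10, 4.37 for exons 11 to 31 and 2.08 for exons 32 to 52.

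A short annotated Vwf transcript ends just after exon 10, in 791 bases (chromosome 6, 125591681 to 125592471) that the full transcript splices out. Those bases had 9, 6 and 21 counts in the WT HSC libraries and 139, 57 and 107 counts in the MLL-ENL HSC libraries. Scaled per kilobase and megacount, again without TMM, the MLL-ENL mean was 5.90 ± 1.90 (SD, n = 3) and 5.91 times the WT mean. The groups did not overlap. In MLL-ENL HSC the end of the short transcript thus had more counts per base than exons 11 to 31, which had 0.908 ± 0.247. The division of Vwf into these stretches was chosen after its exon values were seen, and no test was made of it. The introns of Vwf had 0.062 ± 0.014 in WT HSC and 0.198 ± 0.047 in MLL-ENL HSC on the same scale.

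**Figure D2:**
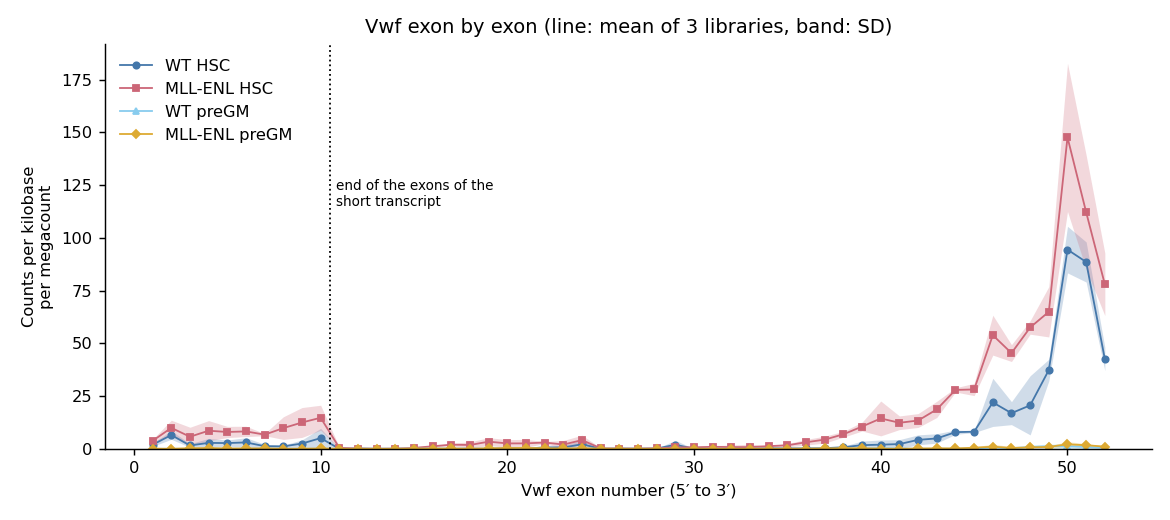
Counts per kilobase and megacount (vertical axis) over the 52 exons of Vwf (horizontal axis, 5′ to 3′) as the mean of 3 libraries per group (line) with its SD (band); the dotted line marks where the short annotated transcript ends. MLL-ENL HSC lies above WT HSC at the first 10 exons and again towards the 3′ end, with few counts between, and both preGM groups lie near 0.

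Treml1, Gp9 and Gp1bb were not called in HSC. Treml1, the granule receptor gene, had 8.84, 10.8 and 8.07 CPM in WT HSC and 3.07, 2.83 and 3.04 CPM in MLL-ENL HSC. These groups were well separated and each was tight, yet the log2 change of -1.63 ± 0.45 fell just outside the threshold (edgeR adjusted p = 0.0532). It was called under 9 of the 23 alternatives and not under 14, over a range of adjusted p from 0.00261 to 0.176. With the HSC libraries fitted alone it was called (-1.61 ± 0.30, edgeR adjusted p = 0.00269). Without both preGM libraries that stood apart, which share the estimate of spread in the main fit, it was called too (-1.63 ± 0.37, 0.0066). Gp9, the small leucine-rich subunit of the von Willebrand factor receptor, had 38.5, 31.6 and 41.9 CPM in WT HSC and 50.2, 49.6 and 46.7 CPM in MLL-ENL HSC. The groups did not overlap, but the log2 change was small, 0.39 ± 0.26 (adjusted p = 0.462), and was not called under any alternative run.

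Per kilobase of its longest transcript, the order of mean levels in WT HSC was Pf4 (820 CPM per kilobase), Gp9 (46.1), Treml1 (7.40), Ppbp (7.38), F2rl2 (6.53), Vwf (4.37) and Gp1bb (1.42). The SDs of Treml1 and F2rl2 (1.12 and 1.41) exceed the gaps between these 2 genes and Ppbp. In MLL-ENL HSC the order was Pf4 (80.2), Gp9 (60.3), Vwf (8.49), Treml1 (2.39), Gp1bb (1.49), F2rl2 (0.554) and Ppbp (0.553). Pf4, with an SD of 32.4 there, no longer stood clear of Gp9. Among the HSC libraries, the ratio of Pf4 to Vwf CPM was 10.0 to 14.1 for WT, against 0.391 to 0.914 for MLL-ENL. By CPM, which is not divided by length, Pf4 was thus above Vwf in every WT library and below it in every MLL-ENL library. Per kilobase, the mean of Pf4 stayed above that of Vwf in MLL-ENL HSC (80.2 and 8.49).

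The next question was how the same genes differ with MLL-ENL in preGM. There Treml1 rose 3.57-fold, while Pf4 fell 3.97-fold and Gp1bb fell 4.80-fold in the counts as deposited. Of the 7 genes, 1 was called higher and 2 lower by edgeR, where 3.7% and 3.08% of all tested genes were called. The groups did not overlap for 3 of the 7, against 27.8% of all tested genes. The median log2 change of the 7 was -0.21, beside 0.08 over all tested genes.

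**Figure D3:**
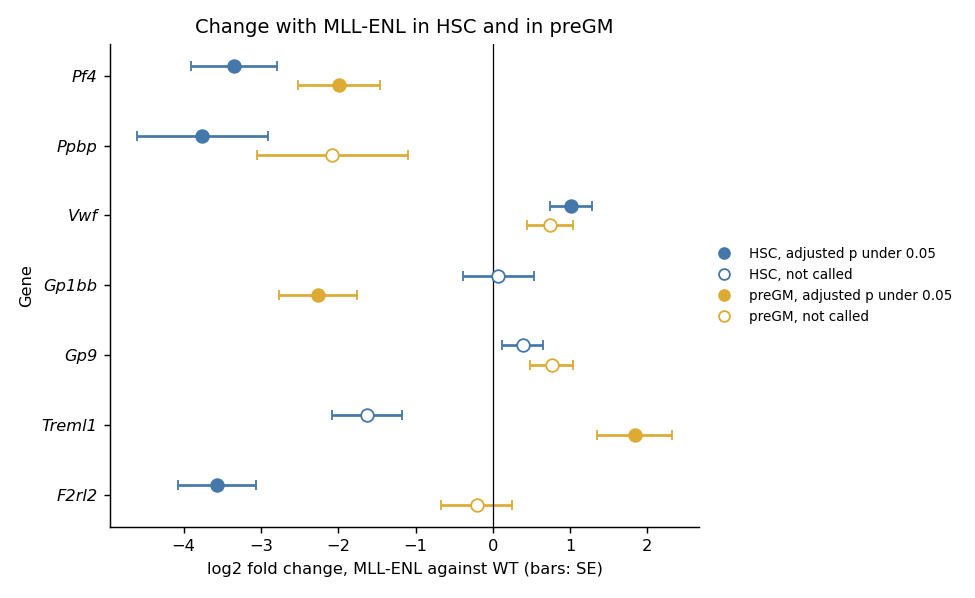
Log2 fold change of each gene between MLL-ENL and WT (horizontal axis; bars: SE) in HSC and in preGM, with filled points for an edgeR adjusted p under 0.05. Treml1 and F2rl2 are the genes whose changes in the cell types differ by the interaction test.

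Treml1 had 0.299, 0.326 and 1.17 CPM in the WT preGM libraries and 1.28, 2.89 and 2.46 CPM in the MLL-ENL preGM libraries. The groups came close, at WT replicate 3 and MLL-ENL replicate 1, but did not overlap. The log2 change was 1.84 ± 0.48 (edgeR adjusted p = 0.0305), and 4 of the 6 exons were higher in every MLL-ENL library than in every WT library. The call was lost under 5 of the 23 alternatives, without WT preGM replicate 1 (0.143) or 2 (0.122), without MLL-ENL preGM replicate 2 (0.0696) or 3 (0.0676), and with the preGM libraries fitted alone (0.119), over a range of adjusted p from 0.00358 to 0.143. Without both libraries that stood apart it was kept (1.85 ± 0.48, adjusted p = 0.0332).

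Pf4 in preGM varied widely within each group. It had 15.3, 81.6 and 46.0 CPM in WT preGM and 4.86, 19.2 and 11.9 CPM in MLL-ENL preGM. The groups overlapped, since the highest MLL-ENL library lay above the lowest WT library. The log2 change of -1.99 ± 0.53 was called by edgeR (adjusted p = 0.0325), but not under 10 of the 23 alternatives, over a range of adjusted p from 0.00213 to 0.238. The libraries that stood apart were the highest WT and the lowest MLL-ENL library for this gene: without both the log2 change was -0.98 ± 0.43 (adjusted p = 0.238), without WT preGM replicate 2 it was -1.36 (0.187) and without MLL-ENL preGM replicate 1 it was -1.61 (0.127). Leaving out replicate 3 of MLL-ENL preGM (0.0762) or of WT preGM (0.0626) also ended the call.

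Gp1bb encodes the beta chain that stands with GP1BA in the platelet receptor for von Willebrand factor. It had 1.64, 3.21 and 1.34 CPM in WT preGM and 0.226, 0.715 and 0.359 CPM in MLL-ENL preGM, without overlap, and a log2 change of -2.26 ± 0.50 (edgeR adjusted p = 0.0112). Exon 1 (chromosome 16, 18621571 to 18622403) overlaps an exon of Sept5, a septin gene, and exon 2 (18620319 to 18621332) overlaps no exon of another gene in the files. Exon 1 had 49, 61 and 34 counts in the WT preGM libraries and 6, 1 and 7 in the MLL-ENL preGM libraries. Exon 2 had 6, 8 and 13 counts in WT preGM and 6, 21 and 6 in MLL-ENL preGM. The difference therefore lay in exon 1 alone. The Sept5 count also fell in MLL-ENL preGM (-3.76 ± 0.63, edgeR adjusted p = 0.00157), but it is not separate from that of Gp1bb exon 1. Sept5 shares 27.9% of its exon bases with other genes, and counts do not keep strand, so the same reads can enter both genes. Sept5 outside the shared bases was not tested.

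With Gp1bb counted on exon 2 alone, an alternative added after the exon counts were seen, the log2 change in preGM was 0.02 ± 0.69 (edgeR adjusted p = 0.992). The whole-gene call was also lost without both libraries that stood apart (0.109), without WT preGM replicate 2 (0.0566) and with limma on log2(RPKM + 1) (0.0597), over a range of adjusted p from 0.000133 to 0.992. In HSC the exons differed as well, but exon 1 moved the other way. Exon 1 had 9, 2 and 8 counts in WT HSC and more, 51, 35 and 25, in MLL-ENL HSC. Exon 2 had 47, 47 and 33 against 37, 27 and 60. The whole-gene CPM in HSC, 3.13, 2.22 and 2.53 in WT and 2.79, 2.47 and 3.01 in MLL-ENL, gave a log2 change of 0.07 ± 0.46 (adjusted p = 0.955). On exon 2 alone it was -0.63 ± 0.60 (adjusted p = 0.618).

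**Figure D4:**
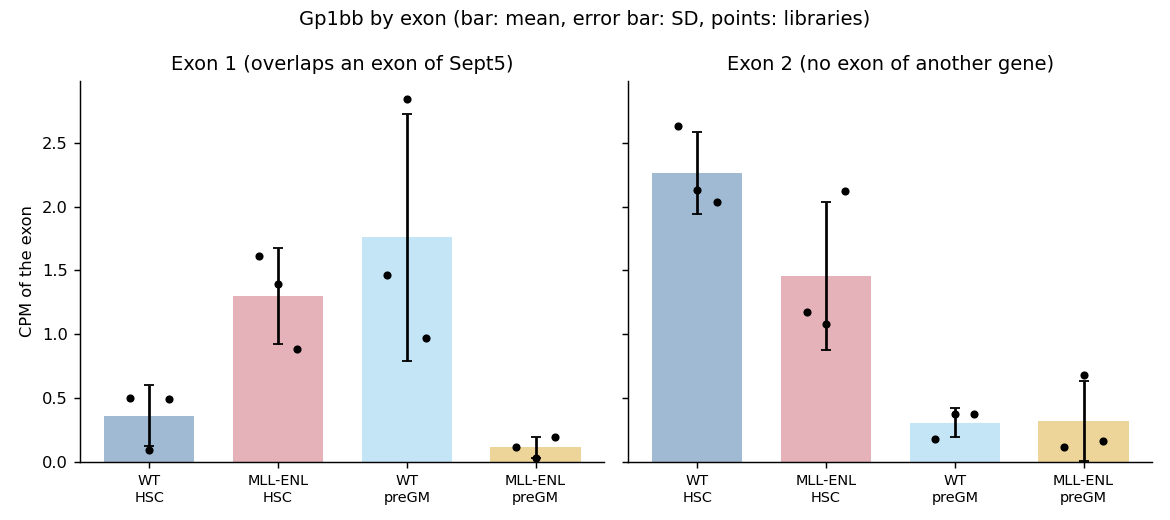
CPM of exon 1 and exon 2 of Gp1bb (vertical axis, from 0) in each group; bars are means, error bars SD and points the 3 libraries. Exon 1, which overlaps an exon of Sept5, is high in WT preGM and low in MLL-ENL preGM, and exon 2 is low in both.

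The other 4 genes were not called in preGM. Vwf had 0.956, 2.52 and 2.02 CPM in WT preGM and 3.30, 2.93 and 2.85 CPM in MLL-ENL preGM, a log2 change of 0.74 ± 0.29 (edgeR adjusted p = 0.147) between groups that did not overlap, called only when scaled by library size (1.09, 0.0486) among the 23 alternatives. Gp9 had 2.54, 2.56 and 3.62 CPM against 2.97, 5.92 and 6.02 CPM, a log2 change of 0.76 ± 0.28 (adjusted p = 0.118) that was called without MLL-ENL preGM replicate 1 (0.0103) and under 3 other alternatives, over a range of adjusted p up to 0.285. Both genes were thus near the level of a few counts per megacount in preGM, where a few libraries decide a call. Ppbp was near the limit of detection, with 5, 21 and 11 counts in WT preGM and 1, 1 and 10 in MLL-ENL preGM, and its log2 change was -2.08 ± 0.98 (adjusted p = 0.213). F2rl2 had 4.75, 1.72 and 6.64 CPM in WT preGM and 3.80, 4.81 and 2.82 CPM in MLL-ENL preGM, a log2 change of -0.21 ± 0.45 (adjusted p = 0.807) between overlapping groups. Its intron had 1, 2 and 0 counts in WT preGM and 56, 15 and 6 in MLL-ENL preGM, and Iqgap2 changed by -0.03 ± 0.23 (adjusted p = 0.958).

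Whether a gene responded differently in the cell types was tested by an interaction, the log2 change in preGM minus that in HSC. The test called Treml1 (3.47 ± 0.66, edgeR adjusted p = 0.00749) and F2rl2 (3.36 ± 0.67, adjusted p = 0.0099). These 2 genes were called higher and 0 lower, where 1.07% of all tested genes were called higher and 2.06% lower. At an unadjusted p under 0.05, 1 gene, Gp1bb, was lower, and DESeq2 and limma with each pseudocount each called 1 lower. Treml1 had a change of -1.63 in HSC that was not called and a rise of 1.84 in preGM. F2rl2 fell by 3.57 in HSC and had a change of -0.21 in preGM. Both calls held under all 22 alternatives run for this comparison, from 2.11 to 4.43 for Treml1 and from 2.39 to 4.02 for F2rl2.

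The interaction did not call the other 5 genes. Pf4 had a value of 1.36 ± 0.72 (edgeR adjusted p = 0.376), and without both libraries that stood apart it was called (2.37 ± 0.55, adjusted p = 0.012), over a range of adjusted p up to 0.595. Ppbp stood at 1.68 ± 1.33 (adjusted p = 0.585) and was called by limma on log2(RPKM + 1) (2.27, 0.00782), Vwf stood at -0.27 ± 0.40 (0.807; -0.82, 0.038 by limma on log2(RPKM + 1)) and Gp9 at 0.37 ± 0.38 (0.694). Gp1bb stood at -2.34 ± 0.68 (0.0775) with both exons and at 0.66 ± 0.91 (0.790) on exon 2 alone.

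Between cell types the genes were mostly lower in preGM. In WT cells, 6 of the 7 were called lower in preGM than in HSC by edgeR and 0 higher, where 20.1% of all tested genes were called lower and 18.4% higher, and 6 did not overlap, against 48.4% of all tested genes. At an unadjusted p under 0.05, and by DESeq2 and limma, 0 were higher as well. The log2 differences were -4.55 ± 0.32 for Vwf (adjusted p = 3.83e-08), -4.11 ± 0.87 for Ppbp (0.00156), -3.90 ± 0.51 for Treml1 (2.07e-05), -3.68 ± 0.30 for Gp9 (1.67e-07), -3.34 ± 0.56 for Pf4 (0.000225) and -1.89 ± 0.46 for F2rl2 (0.00456). Those 6 calls held under all 23 alternatives. Gp1bb was the exception at -0.36 ± 0.47 (adjusted p = 0.580), but on exon 2 alone it was lower as well (-2.88, adjusted p = 0.00322), and with both exons it was called lower when scaled by library size (-1.10, 0.0414) and by limma with either pseudocount (-0.99, 0.0193, and -0.55, 0.00898).

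In MLL-ENL cells, 4 genes were called lower in preGM than in HSC and 1 higher, where 21.2% and 20.4% of all tested genes were called, and 5 of the 7 did not overlap, against 54.8%. Vwf (-4.82 ± 0.32, edgeR adjusted p = 2.92e-08), Gp9 (-3.30 ± 0.29, 5.06e-07), Gp1bb (-2.69 ± 0.50, 0.000637) and Pf4 (-1.97 ± 0.53, 0.00769) were lower, and these calls held under all 23 alternatives. F2rl2 was higher in preGM, by 1.47 ± 0.48 (adjusted p = 0.0229), a call lost under 6 alternatives, among them without MLL-ENL HSC replicate 1 (0.0957) or 3 (0.101) and without MLL-ENL preGM replicate 2 (0.0705), over a range of adjusted p from 0.00633 to 0.192. Treml1, at -0.44 ± 0.45 (0.451), and Ppbp, at -2.44 ± 0.96 (0.0528), were not called. Ppbp was called lower under 7 of its 22 alternatives, with values from -4.37 to -0.54 and adjusted p from 0.0127 to 0.511, and Treml1 under 1 of 23. These comparisons share libraries with those between genotypes, so their values are given side by side and not as separate support.

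Other genes of platelets and megakaryocytes were read from 4 lists of named genes, 58 genes of which 52 could be tested. Like the 7 genes, the lists were drawn up with earlier results of these data known. In HSC, 2 of the 52 were called higher with MLL-ENL and 1 lower by edgeR, close to the 3.19% and 0.932% of all tested genes, with a median log2 change of 0.06, beside 0.02 over all tested genes. The higher ones were Clu, the alpha granule protein clusterin, which went from 29.5 ± 6.18 to 158 ± 19.5 CPM (SD, n = 3; 2.43 ± 0.28 SE, adjusted p = 0.000165), and Clec1b, the podoplanin receptor CLEC-2, which went from 0.0616 ± 0.107 to 1.55 ± 0.694 CPM (4.70 ± 1.07, adjusted p = 0.022). The lower one was Slc35d3, needed for platelet dense granules, which went from 6.10 ± 0.652 to 1.11 ± 0.272 CPM (-2.45 ± 0.50, adjusted p = 0.0113). All 3 came from the lists of granule genes and surface receptor genes. Clec1b was near the limit of detection in WT HSC, so the size of its change is uncertain.

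In preGM, 11 of the 52 were called higher with MLL-ENL and 6 lower, where 3.7% and 3.08% of all tested genes were called, with a median log2 change of 0.44, beside 0.08 over all tested genes. Among 14 tested surface receptor genes 5 rose: Tbxa2r, the thromboxane receptor (3.97 ± 0.74, edgeR adjusted p = 0.00361), Itga2b, the fibrinogen receptor chain CD41 (2.02 ± 0.39, 0.00446), F2rl3 (1.81 ± 0.28, 0.000715), F2r and Esam. Tbxa2r was near the limit of detection in WT preGM, at 0.029 ± 0.028 CPM (SD), beside 0.558 ± 0.367 CPM in MLL-ENL preGM. Among 14 granule genes 4 rose, led by Selp, which encodes P-selectin (2.66 ± 0.31, 7.71e-05), and Slc35d3 (2.58 ± 0.56, 0.0102), with Sparc and Timp3. The same list had 3 genes that fell, Thbs1 (-4.36 ± 0.46, 2.37e-05), F13a1 and Srgn, which myeloid cells also express. Of 12 transcription factor genes Gfi1b (1.56 ± 0.40, 0.027) and Mef2c (1.31 ± 0.24, 0.00304) rose and Srf fell (-1.04 ± 0.27, 0.0294), and of 12 cytoskeleton and signalling genes Rasgrp2 and Ptgs1 fell.

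**Figure D5:**
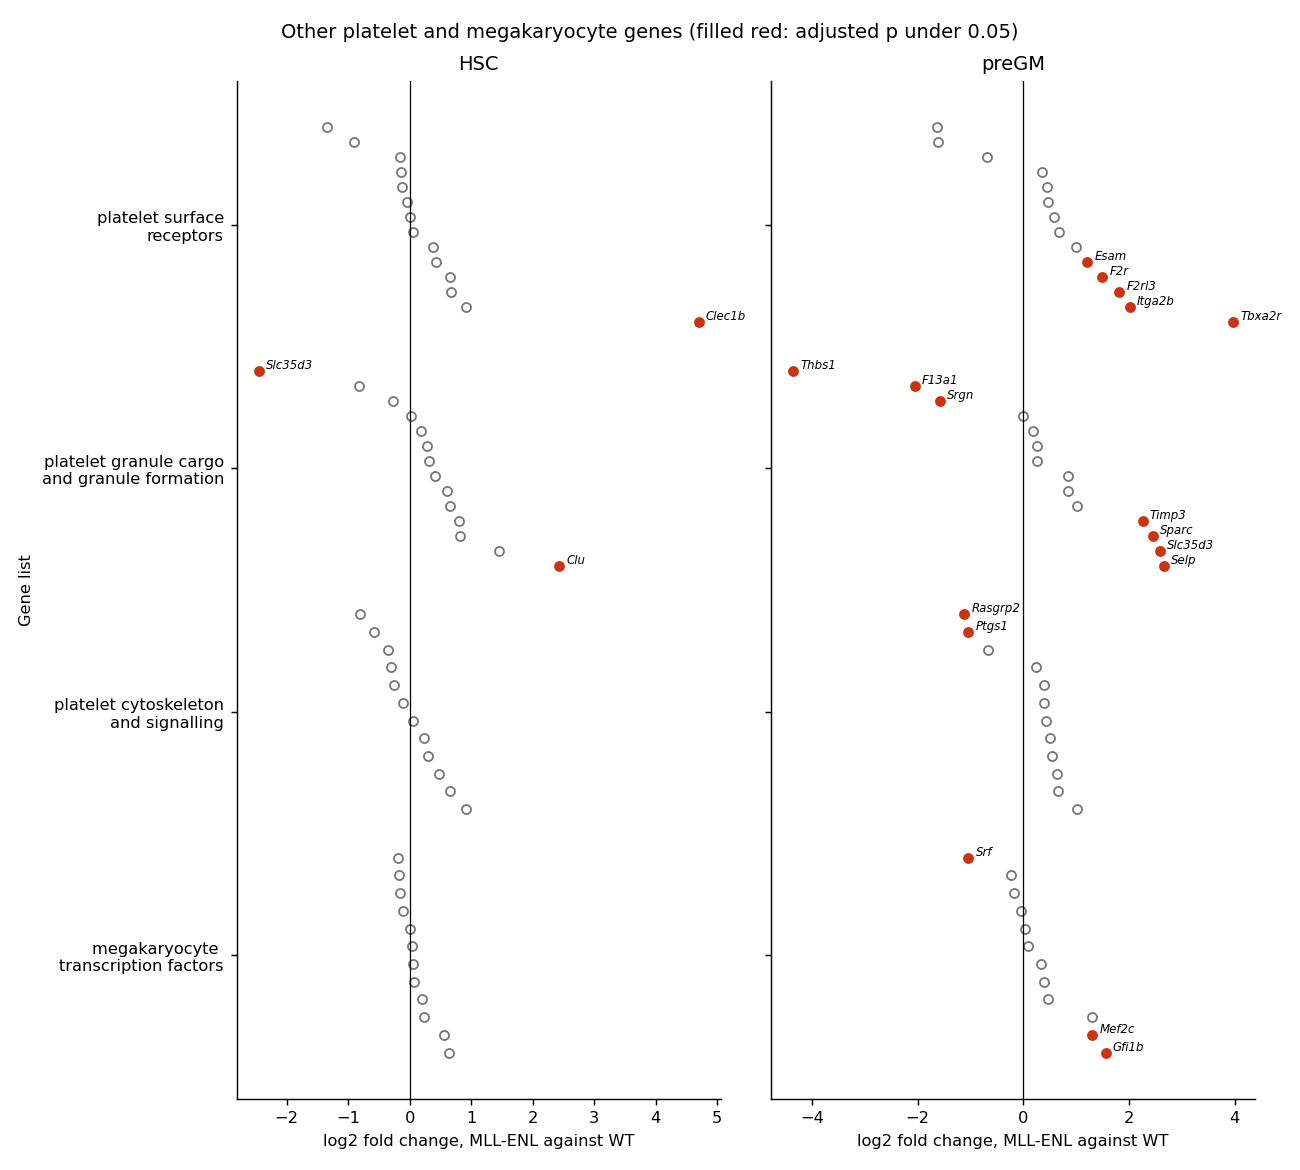
Log2 fold change with MLL-ENL (horizontal axis) of 52 other platelet and megakaryocyte genes in HSC and in preGM, 1 point per gene, grouped by list and sorted by value within a list; filled red points have an edgeR adjusted p under 0.05. In HSC 3 genes are filled and in preGM 17.

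By the interaction, 5 of the 52 genes had a higher change in preGM than in HSC and 4 a lower one, where 1.07% and 2.06% of all tested genes were called. Slc35d3 was the largest of the higher ones (5.03 ± 0.75, edgeR adjusted p = 0.00128) and the gene whose levels were most like those of Treml1, with a Pearson r of 0.974 over the 12 libraries. Timp3, Selp, Itga2b and Mef2c were the other higher ones. The lower ones were Clec1b (-6.31 ± 1.42, 0.0206), which had few counts, Thbs1 (-4.97 ± 0.61, 0.000262), Clu (-2.24 ± 0.37, 0.00292) and Srf (-1.68 ± 0.39, 0.0232).

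Genes most like each of the 7 over the 12 libraries were ranked by the Pearson r of log2 CPM, without a test, since libraries of a group share their cell type and strain. Vwf was most like Chad (0.992), Crebrf (0.992) and Fam110c (0.990), and Gp9 most like Chad (0.991), Bex1 and Gimap5 (both 0.990). Pf4 was most like the globin gene Hbb-bt (0.964), then Ppm1d and Gm16731, and Ppbp most like Smarcd1 (0.923), Sclt1 and Gm15601. For Treml1, Clnk (0.933) and Tmem215 (0.929) followed Slc35d3. F2rl2 was most like Fam78a (0.913), Gm26982 and Ppm1e, and Gp1bb, with both exons, most like Card19 (0.988), Gm42674 and S100a4. Within the set, r was 0.978 for Vwf with Gp9 and 0.895 for Pf4 with Ppbp, and -0.06 for Vwf with F2rl2.

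Markers of other cell types moved with some of these results. In HSC, 3.19% of all tested genes were called higher with MLL-ENL and 0.932% lower. Of 13 tested erythroid genes, 1 was called higher there and 2 lower. Summed erythroid CPM was 1495 to 1754 in WT HSC and 1997 to 2119 in MLL-ENL HSC, most of it Car2 (1348 to 1618 and 1938 to 2066 CPM), with Slc4a1 at 0 in all libraries. Hbb-bt fell from a mean of 94.2 CPM to 19.9 CPM (-2.25 ± 0.42 SE, edgeR adjusted p = 0.00611). Of 7 tested endothelial genes 1 was higher in MLL-ENL HSC, with sums of 115 to 131 and 194 to 212 CPM.

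In preGM, 3.7% of all tested genes were called higher with MLL-ENL and 3.08% lower. Of 9 neutrophil genes 8 fell, with sums of 26433 to 29196 CPM in WT and 10860 to 15294 in MLL-ENL. Of 10 mast cell, basophil and eosinophil genes 6 fell, with sums of 1606 to 2654 and 299 to 343 CPM. Of 7 endothelial genes 4 rose in preGM, with sums of 51.1 to 55.1 and 71.8 to 151 CPM. Of 13 tested erythroid genes 1 rose, Car2 (from 207 ± 117 to 883 ± 205 CPM), and 2 fell, Hbb-bs (-2.35 ± 0.51, edgeR adjusted p = 0.01) and Hbb-bt (-2.14 ± 0.42, 0.00489), with a median log2 change of -0.25. The erythroid sums, 372 to 551 and 923 to 1278 CPM, followed Car2. Of 11 genes that mark preGM or its sort, 2 rose with MLL-ENL and 3 fell. Slamf1 and Itga2b, whose proteins were absent at the preGM sort, rose with MLL-ENL, Slamf1 from 0.139 ± 0.048 to 1.27 ± 0.479 CPM (3.19 ± 0.47, edgeR adjusted p = 0.000496). Ly6a (Sca1; -1.81 ± 0.25, adjusted p = 0.000296) and Fcgr3 (CD16; -2.53 ± 0.35, 0.000339), likewise absent as proteins at that sort, fell, and so did Elane. MLL-ENL preGM replicate 1, which stood apart, had 29.0 CPM of Itga2b beside 7.97 and 9.25 CPM in the other libraries of its group. The part of these markers in the results for the 7 genes was not tested.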

How the data were processed

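RNA of 12 libraries was isolated with the RNeasy micro kit, and SMARTer low-input chemistry was used for sequencing, per the labels' protocols. Per the file headers, the authors deposited a raw read count and an RPKM value for each exon, intron and transcript. The submitters' processing notes list edgeR, HTSeq, Bowtie2 2.1.0 and TopHat2 2.0.8, with no role given. No build is named in the sources used here. Of 93615 transcripts, 89664 (95.8%) matched GENCODE M21 on GRCm38 by identifier, and 77052 of those (85.9%) had identical exons. The deposited counts of non-overlapping exons, covering 99.4% of exon bases, were summed per gene without regard to strand.

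Genes were tested with edgeR 4.0.16 in R 4.3.3 (quasi-likelihood, 12 libraries in 1 fit, TMM, robust, filterByExpr with minimum count 10 and total 15). P-values are two-sided, with Benjamini-Hochberg adjustment over 15662 genes and a threshold of 0.05. SE is the absolute log2 change over the square root of the F statistic. The common biological coefficient of variation was 0.320. A count of 3 was taken as the floor of a library, and such limits cover counting error only. The fit was tested on simulated data. Alternatives were library size alone, DESeq2 1.42.0, no filter, a minimum count of 30, limma 3.58.1 on log2(RPKM + 0.1) and log2(RPKM + 1) of the deposited RPKM, only the groups compared, a replicate block, the longest transcript, and libraries left out. Counting Gp1bb on exon 2 was chosen after seeing the data. The 7 genes and the lists were chosen with earlier results of these data known. All 7 genes, the 3 called genes with the largest change per list and comparison, and the 3 genes most like each by Pearson r were to be named. Other list genes and sort markers were chosen after their values were seen.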

Additional observations from a re-analysis of the deposited data

Results flagged for a closer look

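Treml1 and F2rl2 stood out because their change with MLL-ENL differed between the cell types by a test of that difference. For Treml1 the log2 change in preGM exceeded that in HSC by 3.47 ± 0.66 (SE; edgeR adjusted p = 0.00749): all 3 MLL-ENL HSC libraries lay under all 3 WT HSC libraries, and all 3 MLL-ENL preGM libraries lay above all 3 WT preGM libraries. For F2rl2 the excess was 3.36 ± 0.67 (adjusted p = 0.0099): all 3 MLL-ENL HSC libraries lay under the WT HSC libraries, while the preGM groups overlapped. The F2rl2 intron had 12 to 29 counts in MLL-ENL HSC libraries and at most 1 in WT HSC libraries, and the part that reads of Iqgap2 have in the gene's counts was not tested.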

How the results depend on the processing

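Across 35 results for single genes and their alternatives, 797 values were computed. Of these, 717 kept direction and side of the threshold, 38 kept the direction but lost the call, 32 gained a call and 10 changed sign. The members called lower in WT preGM against WT HSC numbered 6 or 7 under each alternative, and those called higher in the interaction 2 or 3. Low counts limit Ppbp and exon 2 of Gp1bb in preGM, where each of the 6 libraries had at most 21, although these libraries were the deepest. Library size alone shifted the median log2 change of all genes to 0.21 in HSC, 0.41 in preGM, -0.73 between cell types in WT and -0.56 with MLL-ENL. The interaction has no fit on only the groups compared, and Ppbp gave no value for preGM against HSC with MLL-ENL in that fit.

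The number called higher in HSC (1) was 0 with the longest transcript and with the replicate block, and 0 to 1 with 1 library left out. The number called higher in preGM (1) was 3 when scaled by library size, 2 by limma on log2(RPKM + 0.1), 2 without both libraries that stood apart, 0 with only the groups compared and 0 to 2 with 1 library left out. The number called lower in preGM (2) was 1 when scaled by library size, 1 with no filter, 1 with limma on log2(RPKM + 0.1), 0 with limma on log2(RPKM + 1), 1 with only the groups compared, 0 without both libraries that stood apart, 1 with Gp1bb counted on exon 2 and 0 to 2 with 1 library left out. The number called lower in the interaction (0) was 1, Gp1bb or Vwf, with DESeq2 and with limma at both pseudocounts, and 0 to 1 with 1 library left out. The number called higher in preGM against HSC with MLL-ENL (1, F2rl2) was 0 with library size alone and with limma at both pseudocounts, and 0 to 1 with 1 library left out.

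None of the values that changed sign was called in either form except Gp1bb in preGM. They were Gp1bb in HSC without WT HSC replicate 2 (-0.033) and on exon 2 (-0.63), Gp1bb on exon 2 in preGM (0.021) and in the interaction (0.66), and F2rl2 in preGM scaled by library size (0.044), by limma on log2(RPKM + 0.1) (0.23) or log2(RPKM + 1) (0.080) and without WT preGM replicate 3 (0.21). The others were interactions, Vwf without WT preGM replicate 2 (0.00415) and Ppbp without MLL-ENL preGM replicate 3 (-0.26). With 1 library left out, these results ranged from -0.033 to 0.22 (Gp1bb in HSC), -0.58 to 0.21 (F2rl2 in preGM), -0.59 to 0.00415 (interaction of Vwf) and -0.26 to 3.21 (interaction of Ppbp). The Gp1bb values on exon 2 leave out exon 1, where the gene overlaps Sept5. For the other changes of sign the cause was not tested.

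No pairing of libraries by replicate number was seen: of 18 pairs with the same number, 1 had a correlation over 0.1 (range -0.105 to 0.101). The correlations are of deviations from means of 3 libraries, and pairs with different numbers reached 0.139 and -0.137. Whether libraries with the same number shared an animal or a culture is not settled by this check. The replicate block ended the call of Vwf in HSC (1.01, edgeR adjusted p = 0.0811), and the number of members called higher there was 0.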

Other observations

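Chemokine genes that neighbour Pf4 and Ppbp had low levels, except in WT preGM replicate 2. Of 5 read (Cxcl1, Cxcl2, Cxcl3, Cxcl5 and Cxcl15), 2 could be tested, and their summed CPM, for WT and then MLL-ENL, was 0.136 to 0.839 and 0.412 to 0.876 among HSC libraries, and 0.568 to 19.9 and 0.0325 to 0.276 among preGM libraries. Cxcl2, a neutrophil-attracting chemokine gene, was called lower in MLL-ENL preGM (-7.49 ± 1.46 SE, edgeR adjusted p = 0.00462), with 15.3 CPM in WT preGM replicate 2, a library that stood apart, and 0.359 and 0.598 CPM in the other WT preGM libraries. Neither Cxcl2 nor Cxcl3 was called in HSC, where Pf4 and Ppbp fell. With at most 12 counts in any HSC library, a fall of either gene there could not be judged.

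Other protease-activated receptor genes were read beside F2rl2. F2r and F2rl3 were not called in HSC (0.38 ± 0.34 SE, edgeR adjusted p = 0.587, and 0.66 ± 0.27, 0.199) and rose in preGM (adjusted p = 0.0161 and 0.000715). F2r had 31.3 CPM in MLL-ENL preGM replicate 1, a library that stood apart, and 12.4 and 13.3 CPM in the others of its group. In WT preGM it had 4.27 to 8.66 CPM. In MLL-ENL HSC, F2rl3 had 46.2 to 55.1 CPM and F2r 52.1 to 79.0 CPM, and F2rl1 had no counts there.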
